A study of Rattus norvegicus with 31 samples.

Results

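The ubiquitin-conjugating enzymes and the Ube-named ubiquitin ligases were followed in the kidney cortex and the colon of rats. The members were chosen by gene symbol, as every listed gene whose symbol begins with Ube and a digit from 1 to 4, and the symbols matched 39 of 20207 listed genes. No measured value entered that choice of genes, although the family was put forward with earlier results of these data known. Of the 39 genes, 33 were Ube2 genes (E2 enzymes and E2 variants), 4 were Ube3 genes (ligases named for the HECT domain) and 2 were Ube4 genes (ligases with a U-box). No symbol with the digit 1 was listed, and Ube2v1 and Ube2w were not listed under these symbols. The study compared rats given a high-salt diet with the vitamin D hormone calcitriol (CAL), a high-salt model group (HS) and a normal control group (NC). RNA was measured in whole tissue from 6 CAL, 4 HS and 5 NC cortex libraries and from 6 CAL, 5 HS and 5 NC colon libraries, 31 in all. The CAL and HS groups shared the high-salt diet. The labels used here give no strain, age, sex, diet composition, dose or duration, nor whether a cortex and a colon library came from the same animal. They also do not say that replicates were separate animals, so each p measures the spread between these libraries. In such bulk samples, fewer cells of a type and less RNA per cell cannot be told apart.

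Ubiquitin is attached to proteins by a relay. An E1 enzyme activates it, an E2 enzyme carries it as a thioester, and an E3 ligase directs it onto a lysine of the target. With ligases that bring the E2 and the target together, the E2 largely sets the kind of chain that is built. Chains of some linkages send proteins to the proteasome, while others serve signalling or DNA repair. HECT ligases take ubiquitin from the E2 onto their own cysteine, and U-box ligases bring the E2 and the target together. Some E2 enzymes carry other modifiers: Ube2m and Ube2f carry NEDD8, and Ube2l6 carries ISG15. In the kidney the relay is known for setting how much sodium transport protein stays at the tubule surface, through ligases such as Nedd4l and the Cul3-Klhl3 complex.

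In the kidney cortex, 7 of the 28 members that could be tested differed between HS and NC, and promoters of 4 of these 7 are shown here because they cover both directions (Ube3a, Ube2d3 and Ube2h higher, Ube3b lower). The sequences are from RefSeq on build GRCr8, with 250 bases before and 50 after the annotated start, each read 5′ to 3′ on the strand of the gene. They lie at chr1:119205898-119206197 (Ube3a, plus strand), chr2:226542944-226543243 (Ube2d3, plus strand), chr4:59897534-59897833 (Ube2h, minus strand) and chr12:47890653-47890952 (Ube3b, minus strand). Capitals mark the GC box letters GGGCGG read on either strand.
Ube3a: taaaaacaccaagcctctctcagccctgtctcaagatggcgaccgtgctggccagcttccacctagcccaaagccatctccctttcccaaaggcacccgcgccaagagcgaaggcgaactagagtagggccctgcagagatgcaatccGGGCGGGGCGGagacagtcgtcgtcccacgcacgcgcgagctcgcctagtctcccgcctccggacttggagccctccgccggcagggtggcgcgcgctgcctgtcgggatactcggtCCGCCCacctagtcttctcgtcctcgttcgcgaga
Ube2d3: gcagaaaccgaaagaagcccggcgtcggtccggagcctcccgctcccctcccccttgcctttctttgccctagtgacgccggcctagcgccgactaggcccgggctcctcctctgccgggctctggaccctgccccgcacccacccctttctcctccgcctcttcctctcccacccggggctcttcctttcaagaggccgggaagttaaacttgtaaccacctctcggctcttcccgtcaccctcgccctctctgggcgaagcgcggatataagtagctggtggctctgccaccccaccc
Ube2h: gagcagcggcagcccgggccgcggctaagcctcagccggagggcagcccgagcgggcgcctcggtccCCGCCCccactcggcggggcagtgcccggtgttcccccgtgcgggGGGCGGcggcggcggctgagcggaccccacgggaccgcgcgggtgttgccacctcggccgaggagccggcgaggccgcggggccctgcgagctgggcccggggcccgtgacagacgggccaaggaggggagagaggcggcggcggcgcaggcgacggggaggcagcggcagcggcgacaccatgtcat
Ube3b: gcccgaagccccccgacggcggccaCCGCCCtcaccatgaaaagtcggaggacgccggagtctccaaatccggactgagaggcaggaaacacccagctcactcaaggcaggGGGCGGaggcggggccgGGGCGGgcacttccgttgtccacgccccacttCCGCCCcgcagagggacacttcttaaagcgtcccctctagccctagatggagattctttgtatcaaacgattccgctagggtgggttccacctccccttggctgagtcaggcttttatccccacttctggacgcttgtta
The letters of the GC box occurred in 3 places in Ube3a, in 2 in Ube2h and in 4 in Ube3b, overlapping matches counted apart, and in none in Ube2d3. RefSeq promoters were found for 29 of the 39 members and for 6 of the 7 that differed (all but Ube2v2). GC box letters were present in 21 of the 29 members' promoters and in 5 of those 6, against 33.1% of all 33469 promoters of the same length. The median G plus C content was 66% in the members' promoters and 51.7% in all promoters, and the median number of CG steps was 30 in the members' promoters and 7 in all. On both strands, CCAAT was present in 9 of the 29 (37.5% of all promoters), CCGGAAG, the core of ETS factor sites, in 6 (8.75%), TGCGCA, letters within sites of the factor NRF1, in 5 (7.24%), TATAAA in 2 (14.2%) and the E-box CACGTG in 1 (6.42%). The CRE letters TGACGTCA (1.83%) and the direct repeat of AGGTCA spaced by 3 bases (0.0239%), of the kind the vitamin D receptor binds, were in none of the 29. GC box letters stood in promoters of genes that were higher and in that of Ube3b, which was lower, so they did not separate the directions.

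A cortex library held 289529 to 2265164 counts and a colon library 267976 to 918820. Levels are given as CPM (counts of the gene scaled to a common library size) after trimmed-mean (TMM) scaling within a tissue, and a count of 0 in a library allows up to 1.36 to 10.5 CPM in the cortex and 3.4 to 11.6 CPM in the colon, taking 3 counts as the limit for counting error only. The cortex libraries held the kidney markers and the colon libraries the colon epithelium markers: 7 listed colon epithelium genes summed to at most 6.91 CPM in any cortex library and to at least 7044 CPM in any colon library. The 8 proximal tubule genes summed to at least 10031 CPM in every cortex library and to at most 156 CPM in any colon library. Colon HS replicate 3 stood apart, with the highest summed leukocyte markers of the colon (4001 CPM, against 214 to 1844 in the other 15), and HS replicate 4 had the next highest (1844 CPM). Colon results were therefore also computed without both. The 39 members together took 0.232% to 0.270% of all counts in CAL, 0.240% to 0.272% in HS and 0.204% to 0.211% in NC cortex. In the colon they took 0.252% to 0.338% in CAL, 0.225% to 0.314% in HS and 0.269% to 0.297% in NC. The cortex share in every CAL and every HS library lay above every NC library, whereas the colon groups overlapped. This sum weighs abundant members most, chiefly Ube2d3, with cortex means of 543, 691 and 383 CPM in CAL, HS and NC. It therefore does not show a shift of every member.

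**Figure D1:**
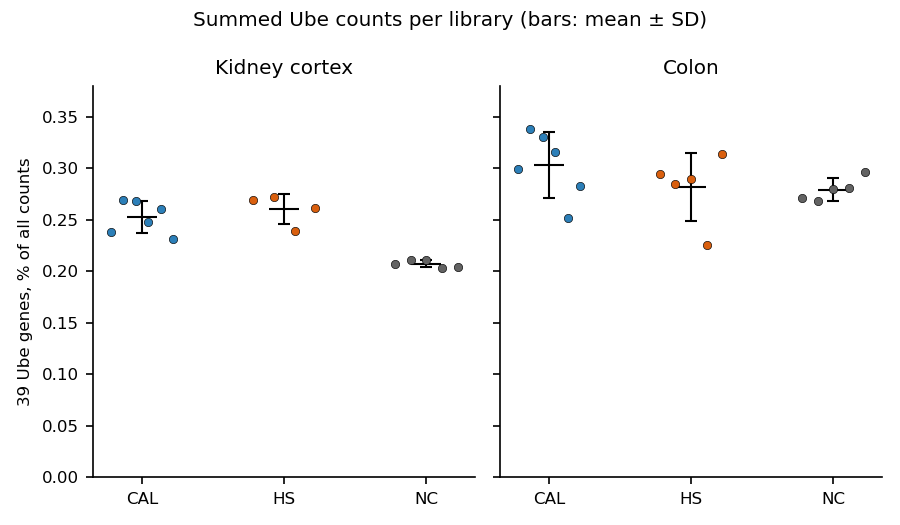
Percent of all counts of a library assigned to the 39 Ube genes, for cortex and colon libraries of CAL, HS and NC (points are libraries, bars mean and SD). In the cortex the NC libraries lay between 0.204% and 0.211%, below all CAL and HS libraries, and in the colon the groups overlapped. The sum weighs abundant members most, chiefly Ube2d3.

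The comparison of HS with NC in the cortex asks what high salt did to the kidney. Of 28 members tested, 6 rose (Ube3a, Ube2d3, Ube2v2, Ube2h, Ube2a and Ube2g1) and 1 fell (Ube3b) at an adjusted p under 0.05, by edgeR's quasi-likelihood test with Benjamini-Hochberg adjustment over all 7524 tested genes. The 6 that rose were 21.4% of the members tested, against 7.35% of all tested genes that rose, and the 1 that fell was 3.57%, against 3.69% of all. At an unadjusted p under 0.05 there were 9 members (32.1%), against 27.3% of all tested genes. For 5 members (17.9%) every HS library lay above every NC library, against 7.44% of all tested genes, and for 0 every HS library lay below, against 5.64%. The median log2 fold change was 0.29 over the 28 members and -0.01 over all tested genes. The count of 7 was 4 without NC replicate 1, 4 or 5 or HS replicate 1, and 3 without HS replicate 2.

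Among the HECT ligases, Ube3a and Ube3b moved in opposite directions. Ube3a, the ligase first known as E6-associated protein, had 111, 91.5, 98.2 and 104 CPM in the 4 HS libraries and 28.4, 51.0, 48.6, 41.4 and 43.4 CPM in the 5 NC libraries. Every HS library lay well above every NC library. The means were 101 ± 8.21 CPM in HS (SD, n = 4) and 42.5 ± 8.82 CPM in NC (SD, n = 5), a log2 fold change of 1.23 (SE 0.19, adjusted p = 4.48e-04 by edgeR). Ube3b, a HECT ligase with a calmodulin-binding motif, had 26.6, 16.8, 31.6 and 25.1 CPM in HS and 48.2, 29.7, 37.8, 47.3 and 48.4 CPM in NC. Its groups overlapped by a single library on each side, NC replicate 2 and HS replicate 3, and its counts were low, 9 to 21 reads per HS library and 21 to 35 per NC library. Its means were 25.0 ± 6.14 CPM in HS and 42.3 ± 8.29 CPM in NC, a log2 fold change of -0.78 (SE 0.24, adjusted p = 0.0366 by edgeR). Ube3c, a ligase that works at the proteasome, had 70.9, 85.4, 42.1 and 60.9 CPM in HS and 53.9, 42.5, 66.6, 59.1 and 36.7 CPM in NC. Its groups overlapped, with a log2 fold change of 0.39 (SE 0.22, adjusted p = 0.246 by edgeR). Ube3d was below the count filter in both tissues, at 4.77 to 14 CPM in HS and 8.51 to 18.3 CPM in NC cortex.

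Of the E2 enzymes that work with many ligases, Ube2d3 rose. It had 758, 703, 677 and 625 CPM in HS and 400, 438, 382, 307 and 387 CPM in NC, with no overlap. The means were 691 ± 55.3 CPM in HS and 383 ± 47.4 CPM in NC, a log2 fold change of 0.85 (SE 0.13, adjusted p = 4.48e-04 by edgeR), on 156 to 524 reads per library, and its SE was the smallest of the 7. Its relative Ube2d2 had a log2 fold change of 0.47 (SE 0.17, adjusted p = 0.0791 by edgeR), and Ube2e1, Ube2e2, Ube2e3 and Ube2l3, the last the usual partner of HECT and RBR ligases, lay between -0.29 and 0.38 with adjusted p of 0.199 or more. Ube2d1 and Ube2d4 did not pass the count filter in the cortex. Of these 8 genes, 6 were tested, and 1 rose.

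Ube2v2, an E2 variant without an active-site cysteine that pairs with Ube2n to build K63-linked chains in DNA damage tolerance, had 73.1, 77.8, 73.6 and 83.5 CPM in HS and 38.3, 45.9, 37.8, 39.4 and 36.7 CPM in NC. Both groups were tight and did not overlap. The means were 77.0 ± 4.82 CPM in HS and 39.6 ± 3.63 CPM in NC, a log2 fold change of 0.95 (SE 0.18, adjusted p = 0.00288 by edgeR). Its catalytic partner Ube2n had 31, 54.9, 59.6 and 34.6 CPM in HS and 25.5, 39.1, 32.4, 49.3 and 21.7 CPM in NC. These groups overlapped and Ube2n did not pass, with a log2 fold change of 0.38 (SE 0.25, 95% interval -0.10 to 0.86, adjusted p = 0.326 by edgeR). Ube2a, the rat Rad6 homologue that marks histone H2B and PCNA, had 95.3, 88.5, 84.1 and 112 CPM in HS and 68.0, 75.6, 61.2, 57.2 and 61.7 CPM in NC, again with no overlap. Its log2 fold change was 0.55 (SE 0.18, adjusted p = 0.0428 by edgeR). Its paralogue Ube2b was listed at 0 in all 31 libraries, so how reads of these closely similar genes were assigned bears on the Ube2a level and was not tested.

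Ube2h, the E2 of the CTLH ligase complex and an enzyme of maturing red cells, had 88.7, 87.0, 84.1 and 64.4 CPM in HS and 39.7, 44.2, 32.4, 57.2 and 51.7 CPM in NC. The groups did not overlap, and HS replicate 4 was the nearest to NC. The means were 81.1 ± 11.2 CPM in HS and 45.0 ± 9.75 CPM in NC, a log2 fold change of 0.83 (SE 0.21, adjusted p = 0.0157 by edgeR), and the adjusted p was 0.0531 without HS replicate 1 and 0.0559 without HS replicate 2. After thinning all libraries to the smallest total, Ube2h had 0.57 with an adjusted p of 0.176. Red cell transcripts moved the other way, with the haemoglobin genes at 0.127 ± 0.0353% of counts in HS and 0.980 ± 0.650% in NC, and 6 of the 7 erythrocyte markers lower. Ube2o, the other E2 known from reticulocytes, had 1.19 to 3.51 CPM in HS and 1.97 to 14.2 CPM in NC, with at most 10 reads in any of these libraries, and was not tested. Among E2 enzymes of the endoplasmic reticulum and of chain extension, Ube2g1, which extends chains for cullin ligases, had 120, 142, 91.1 and 146 CPM in HS and 80.8, 116, 73.8, 67.0 and 56.7 CPM in NC. Its groups overlapped through NC replicate 2 and HS replicate 3, with a log2 fold change of 0.66 (SE 0.21, adjusted p = 0.0472 by edgeR). Ube2g2, an E2 of protein degradation at the endoplasmic reticulum, had 66.5, 35.1, 52.6 and 60.9 CPM in HS and 62.4, 98.5, 68.4, 65.0 and 55.0 CPM in NC (log2 fold change -0.42, adjusted p = 0.229 by edgeR). Ube2j1, of the same pathway, had 35.5, 36.6, 24.5 and 27.4 CPM in HS and 32.6, 25.5, 23.4, 33.5 and 20.01 CPM in NC (log2 fold change 0.22, adjusted p = 0.590 by edgeR). Neither passed, and neither did Ube2j2 (0.07) and Ube2k (0.09), with adjusted p of 0.762 or more.

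Neither NEDD8 enzyme passed the threshold in the cortex. Ube2m, which charges cullins with NEDD8, had 275, 182, 59.6 and 135 CPM in HS and 166, 85.8, 257, 223 and 220 CPM in NC, a wide spread in both groups (log2 fold change -0.17, 95% interval -0.73 to 0.39, adjusted p = 0.743 by edgeR). Ube2f, the other NEDD8 enzyme, had a log2 fold change of -0.17 (adjusted p = 0.687 by edgeR). Ube2l6, the ISG15 enzyme, was below the filter, at 3.51 to 13.7 CPM in HS and 6.67 to 18.4 CPM in NC. For the cell cycle, Ube2s, which extends chains for the anaphase-promoting complex, had 48.8, 53.4, 52.6 and 90.7 CPM in HS and 83.6, 52.7, 64.8, 101 and 102 CPM in NC, with HS replicate 4 the high one of HS (log2 fold change -0.31, adjusted p = 0.385 by edgeR). Ube2c, which starts those chains, had 0 reads in all 4 HS libraries, which allows up to 3.58 to 10.5 CPM, and 1 to 4 reads in the NC libraries, so no difference was detectable at this depth. Of the U-box ligases, which lengthen ubiquitin chains, Ube4a had 70.9, 85.4, 49.1 and 56.1 CPM in HS and 52.5, 56.9, 48.6, 49.3 and 50.04 CPM in NC (log2 fold change 0.36, adjusted p = 0.262 by edgeR). Ube4b had 42.1, 47.3, 28 and 47.7 CPM in HS and 28.4, 38.2, 32.4, 41.4 and 51.7 CPM in NC (0.17, adjusted p = 0.647 by edgeR). Both overlapped between the groups. Ube2q2, of the class with a long amino end, came nearest to the threshold without passing, with 19.9, 41.2, 49.1 and 34.6 CPM in HS and 22.7, 16.1, 30.6, 13.8 and 16.7 CPM in NC (0.85, SE 0.28, adjusted p = 0.0514 by edgeR), again with overlap.

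Ube3a, Ube2d3 and Ube2v2 passed in each of the 9 other ways of fitting and with each of the 15 cortex libraries left out in turn. Ube3b, Ube2a and Ube2g1 missed the threshold in 5, 4 and 4 of the 9 other fits, among them DESeq2 (adjusted p = 0.0537, 0.0620 and 0.0519). Each also missed it without NC replicate 1, 3, 4 or 5 or HS replicate 1, 2 or 4, with adjusted p of 0.0510 to 0.162 for Ube3b, 0.0629 to 0.158 for Ube2a and 0.0730 to 0.141 for Ube2g1, and Ube2g1 also without CAL replicate 3 (0.0598) or 4 (0.0511). The distal tubule and collecting duct markers, 4 genes of which 1 rose, summed to 1889 to 2473 CPM in HS and 1152 to 1344 CPM in NC without overlap, and the 8 proximal tubule markers, of which 1 fell, to 10666 to 11563 CPM in HS and 11222 to 13624 CPM in NC. None of these markers nor of the erythrocyte list was at 0 throughout a cortex group, and their part in the Ube differences was not tested.

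**Figure D2:**
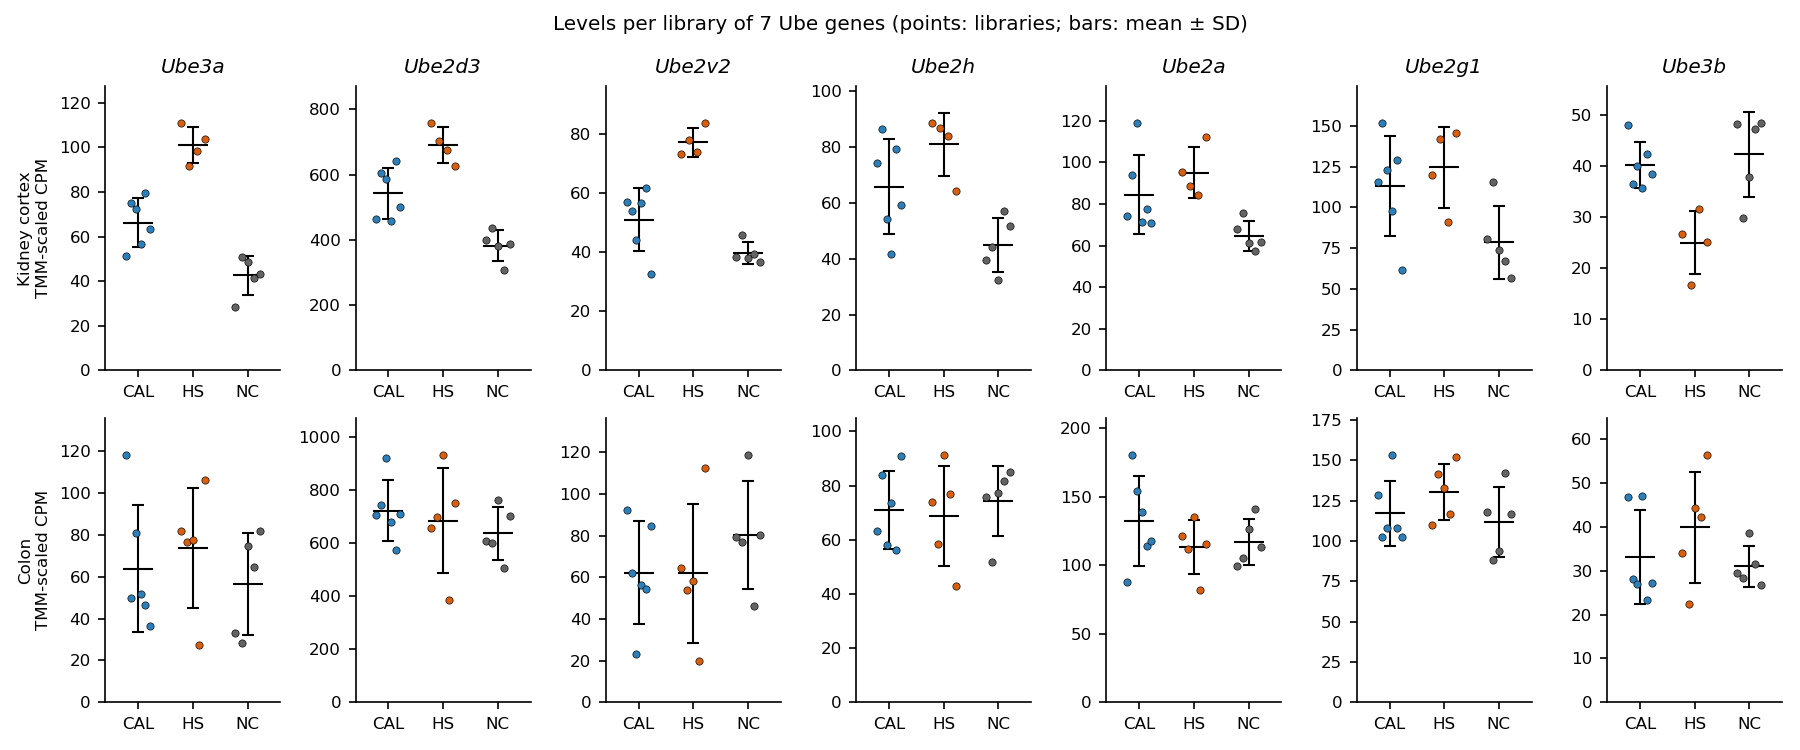
TMM-scaled CPM per library of the 7 genes that differed between HS and NC in the cortex, in cortex (top) and colon (bottom), for CAL, HS and NC (points are libraries, bars mean and SD). In the cortex Ube3a, Ube2d3, Ube2v2, Ube2h and Ube2a show no overlap of HS with NC, and CAL lies between them for Ube3a (means 66.3, 101 and 42.5 CPM in CAL, HS and NC). In the colon the 3 groups overlap for every gene.

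The comparison of CAL with HS asks what calcitriol changed on the high-salt diet. In the cortex, 0 of 28 members passed by edgeR, against 0.758% of all tested genes, 8 (28.6%) had an unadjusted p under 0.05, against 16.2% of all, and DESeq2 called 1, Ube3a. The 8 include Ube2z, which passed the count filter only through CAL libraries. Every CAL library lay above every HS library for Ube3b and Ube2f (2 members, 7.14%, against 1.87% of all tested genes). Every CAL library lay below every HS library for Ube3a, Ube2v2 and Ube2e3 (3 members, 10.7%, against 2.30%). For Ube2e3 this was a near tie, with a highest CAL level of 91.8 CPM and a lowest HS level of 91.9 CPM. With scaling over both tissues its groups overlapped. The median log2 fold change was -0.05 over the members and -0.01 over all tested genes.

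The 6 CAL libraries had a lowest, median and highest level of 51.2, 67.8 and 79.4 CPM for Ube3a, below the 91.5 to 111 CPM of HS. The log2 fold change of CAL over HS was -0.64 (95% interval -0.97 to -0.30, adjusted p = 0.0740 by edgeR). DESeq2 gave -0.63 with an adjusted p of 0.0481, leaving out CAL replicate 5 gave 0.0483, and thinning all libraries to the smallest total gave -0.36 and 0.472. Ube2v2 had 32.6, 55.1 and 61.8 CPM in CAL, below the 73.1 to 83.5 CPM of HS, a log2 fold change of -0.59 (95% interval -0.92 to -0.26, adjusted p = 0.0955 by edgeR), which was -1.17 with an adjusted p of 0.0268 after thinning. Ube3b had 35.7, 39.2 and 48.0 CPM in CAL, above the 16.8 to 31.6 CPM of HS, a log2 fold change of 0.77 (95% interval 0.31 to 1.22, adjusted p = 0.11 by edgeR). For the other 4 genes the groups overlapped. Ube2d3 had 458, 543 and 643 CPM in CAL (log2 fold change over HS -0.35, adjusted p = 0.156 by edgeR), Ube2h 41.6, 66.9 and 86.4 CPM (-0.28, 0.524), Ube2a 71.0, 76.0 and 119 CPM (-0.19, 0.619) and Ube2g1 61.4, 119 and 152 CPM (-0.18, 0.712). The erythrocyte markers differed here too, with haemoglobin at 0.459 ± 0.114% of counts in CAL and 0.127 ± 0.0353% in HS and 4 of 7 markers higher, and their part was not tested.

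Of the members not called between HS and NC, the NEDD8 enzyme Ube2f had 35.7, 42.5 and 49.4 CPM in CAL, above the 21.4 to 34.6 CPM of HS (log2 fold change 0.52, adjusted p = 0.256 by edgeR). Ube2e3 had a log2 fold change of -0.45 (adjusted p = 0.223 by edgeR), Ube2r2, which works with SCF ligases, 0.40 (0.261) and Ube2z, an E2 charged by Uba6, 0.78 (0.296). Ube2z had passed the count filter of the cortex only through 4 CAL libraries, so it could be tested only because CAL was high.

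Between CAL and NC in the cortex, 0 members passed by edgeR, against 0% of all tested genes, and 10 (35.7%) had an unadjusted p under 0.05, against 11.9%. The members tested here include Ube2z, which passed the count filter only through CAL libraries. Every CAL library lay above every NC library for Ube2d3 and Ube3a (2 members, 7.14%, against 0.532% of all tested genes). The margin for Ube3a was small, with a lowest CAL level of 51.2 CPM and a highest NC level of 51.0 CPM. With scaling over both tissues instead, both genes overlapped. Lowest CAL against highest NC was then 463 against 468 CPM for Ube2d3 and 54.4 against 54.5 CPM for Ube3a. Ube2d3 had a log2 fold change of 0.50 (95% interval 0.27 to 0.72, adjusted p = 0.108 by edgeR), and DESeq2 gave 0.49 with an adjusted p of 0.0117. It also passed with no filter on low counts (0.0356) and without CAL replicate 6 (0.0451). Ube3a followed with 0.60 (95% interval 0.26 to 0.93, adjusted p = 0.174 by edgeR) and Ube2h with 0.56 (0.19 to 0.93, adjusted p = 0.250 by edgeR). Ube3b had a log2 fold change of -0.02 (95% interval -0.39 to 0.35, adjusted p = 0.983 by edgeR). CAL with HS, CAL with NC and HS with NC share libraries, so their values stand side by side and are not separate evidence.

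**Figure D3:**
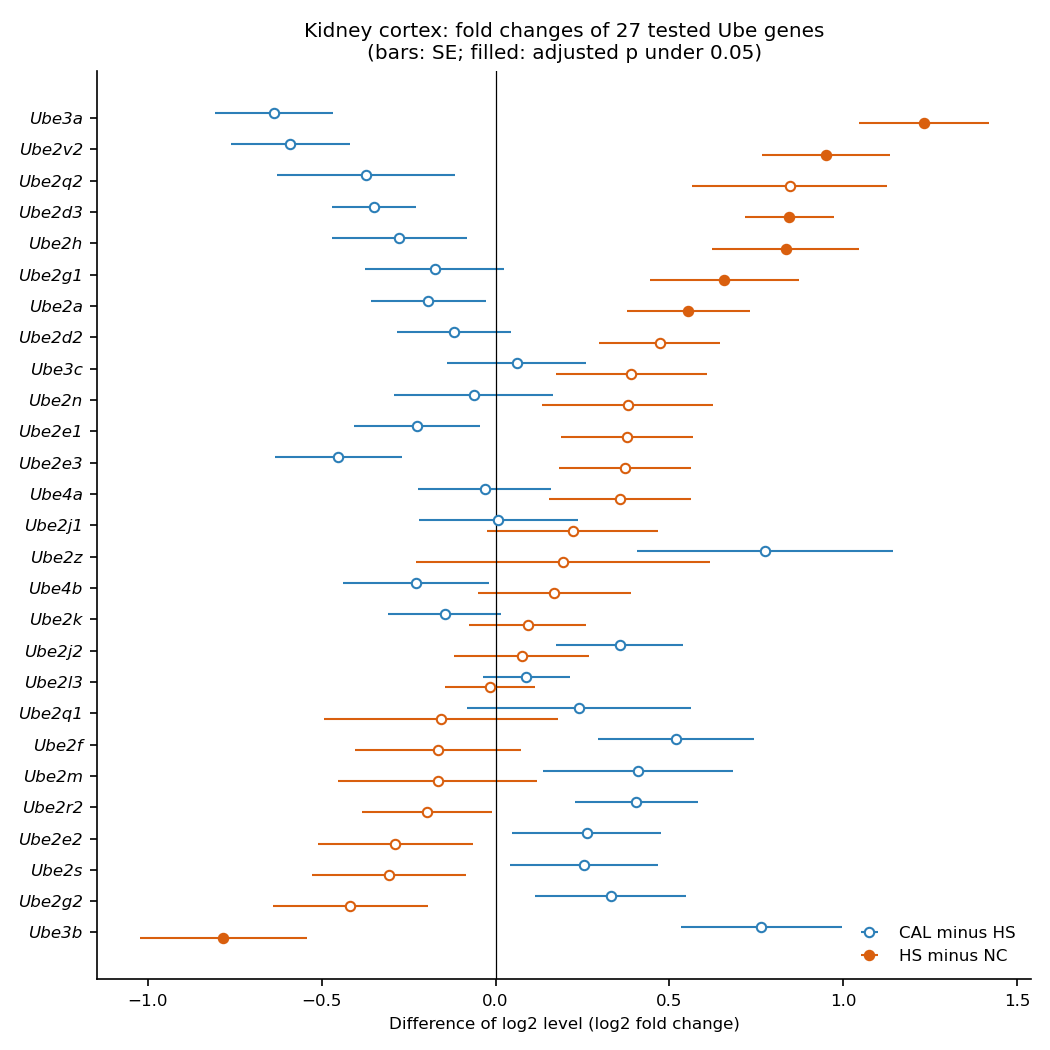
Log2 fold changes with SE of 27 of the 28 tested Ube genes in the cortex, for CAL minus HS (blue) and HS minus NC (orange), sorted by the second; filled points have an adjusted p under 0.05 by edgeR. The 7 filled points are all of HS minus NC, from Ube3b at -0.78 to Ube3a at 1.23; both sets use the same HS libraries.

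In the colon no member passed in any comparison of diet or calcitriol. Between HS and NC, 0 of 29 members passed by edgeR, against 0% of all 7217 tested genes, and 1 (3.45%) had an unadjusted p under 0.05, against 8.51%. Between CAL and HS, 0 passed, against 0.0139%, and 1 (3.45%) had an unadjusted p under 0.05, against 10.5%. Between CAL and NC, 0 passed, against 0%, and 2 (6.90%) had an unadjusted p under 0.05, against 3.85%. No member's groups were free of overlap in these 3 comparisons (0 of 29 each, against 1.40%, 0.527% and 0.679% of all tested genes). The count was 0 under all 10 other ways of fitting, DESeq2 and the fit without HS replicates 3 and 4 included, and with each of the 16 colon libraries left out.

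Ube2c had the smallest p between HS and NC in the colon. It had 30.6, 29.2, 74.6, 49.7 and 13.2 CPM in HS and 22.1, 15.7, 30.3, 6.58 and 13.4 CPM in NC, on 4 to 27 reads per library. The highest level was in HS replicate 3, which also had the highest sum of 10 proliferation markers (515 CPM, against 208 to 268 in the other HS libraries, 98.2 to 254 in NC and 76.3 to 311 in CAL), and their part was not tested. The log2 fold change was 1.21 (SE 0.52, adjusted p = 0.542 by edgeR), and 0.59 without HS replicates 3 and 4. Ube2j1, an E2 of the endoplasmic reticulum membrane, followed with 0.45 (SE 0.27, adjusted p = 0.678 by edgeR) and Ube2e2 with 0.54 (SE 0.33, adjusted p = 0.686 by edgeR). Ube2l6 had 44.3, 35.9, 152, 12.4 and 9.94 CPM in HS and 38.7, 48.7, 57.9, 32.9 and 48.4 CPM in NC, with 38.6, 57.2 and 66.6 CPM as lowest, median and highest in CAL. HS replicate 3 was again the high library, and there the 8 interferon response genes summed to 503 CPM, against 71.5 to 118 in the other HS libraries.

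The 7 genes that differed in the cortex had overlapping groups in the colon. Ube3a had 81.7, 76.3, 77.4, 27.3 and 106 CPM in HS and 33.2, 28.3, 74.5, 64.5 and 81.8 CPM in NC colon (log2 fold change 0.39, 95% interval -0.34 to 1.11, adjusted p = 0.828 by edgeR). Ube2d3 had 658, 698, 932, 385 and 752 CPM in HS and 609, 600, 764, 508 and 701 CPM in NC colon (0.11, 95% interval -0.32 to 0.53). Ube2v2 had 64.7, 53.9, 58.1, 19.9 and 113 CPM in HS and 79.3, 77.0, 119, 46.1 and 80.1 CPM in NC colon (-0.37, 95% interval -1.08 to 0.33). The lowest HS level of Ube3a, Ube2d3 and Ube2v2 was in HS replicate 4, the library with the next highest leukocyte sum, whose part was not tested. The other 4 had log2 fold changes of -0.10 (Ube2h), 0.35 (Ube3b), -0.05 (Ube2a) and 0.21 (Ube2g1), each with an adjusted p of 0.793 or more by edgeR. These intervals are wide, and a p that misses the threshold does not show that the colon levels were alike.

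The NEDD8 enzyme Ube2m had 180.5, 206, 58.1, 81.9 and 162 CPM in HS and 184, 225, 113, 265 and 239 CPM in NC colon, with overlap (log2 fold change -0.57). Ube2n had 54.5, 67.3, 71.9, 29.8 and 82.8 CPM in HS and 71.9, 37.7, 41.4, 46.1 and 40.1 CPM in NC colon (0.35), with NC replicate 1 the highest of NC. Ube2s had 153, 171, 69.1, 86.9 and 109 CPM in HS and 119.9, 169.7, 116, 166 and 177 CPM in NC colon (-0.34), again with overlap. Over all 29 members the median log2 fold change was 0.11 for HS over NC, 0.06 for CAL over HS and 0.16 for CAL over NC, beside 0.04, -0.03 and 0.00 over all tested genes.

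Between CAL and HS in the colon, the smallest p belonged to Ube3c, with 50.3, 71.1 and 84.1 CPM as lowest, median and highest in CAL and 36.3, 60.6, 49.8, 62.1 and 43.1 CPM in HS (log2 fold change 0.50, adjusted p = 0.424 by edgeR). Ube2c followed with -0.95 (adjusted p = 0.516 by edgeR; -0.33 without HS replicates 3 and 4) and Ube2f with 0.53 (adjusted p = 0.536 by edgeR). Between CAL and NC they were Ube2f with 0.60, Ube2l3 with 0.35 and Ube4a with 0.56, each with an adjusted p of 0.9999 by edgeR.

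**Figure D4:**
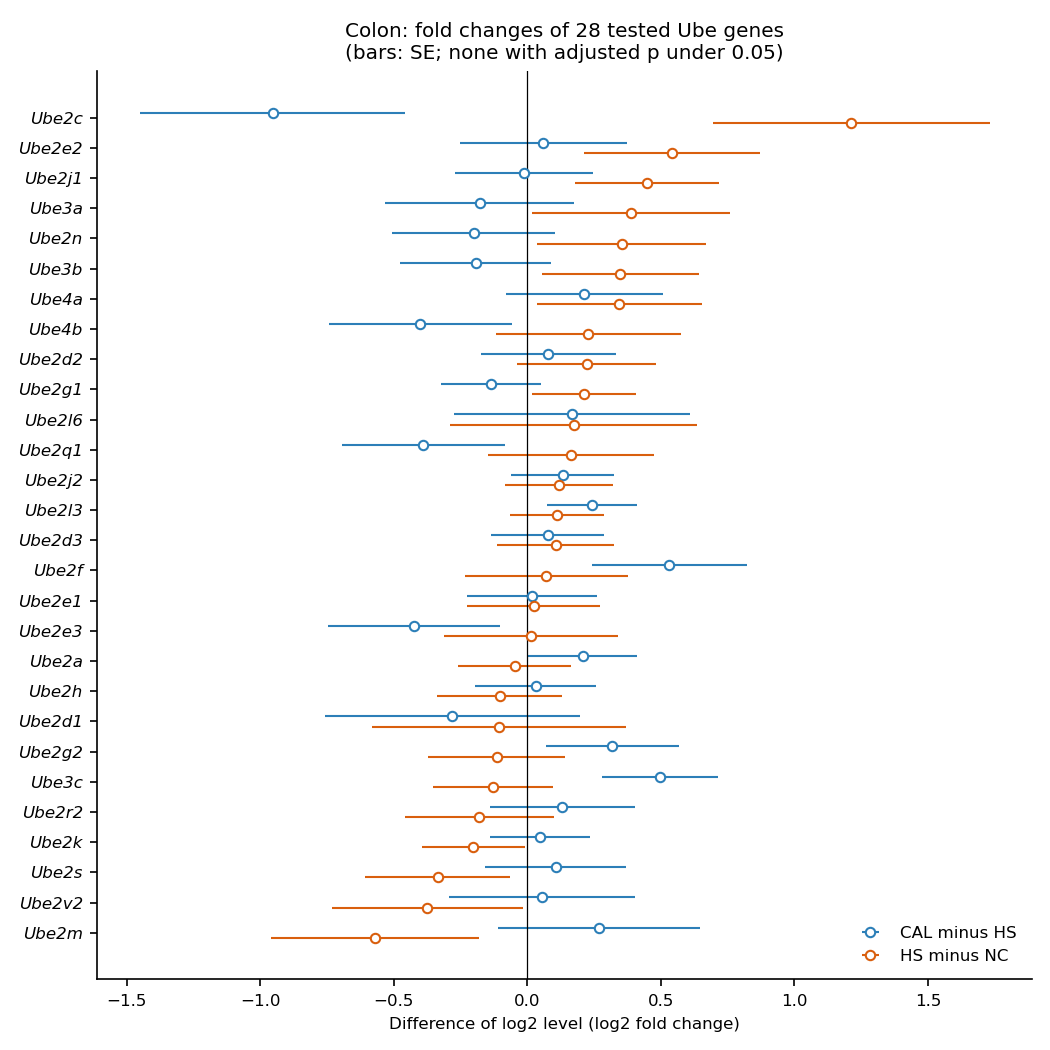
Log2 fold changes with SE of 28 of the 29 tested Ube genes in the colon, for CAL minus HS (blue) and HS minus NC (orange), sorted by the second. No point has an adjusted p under 0.05 by edgeR, and Ube2c has the widest bars, at 1.21 for HS minus NC and -0.95 for CAL minus HS.

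Whether the high-salt difference itself differed between tissues was tested in a fit to all 31 libraries over the 5992 genes tested in both tissues, 26 of them members. For the colon difference (HS minus NC) minus the cortex one, 0 of 26 members passed by edgeR and 0 by DESeq2, against 0.250% of all genes, and 6 (23.1%) had an unadjusted p under 0.05, against 15.6%. The smallest p belonged to Ube2v2, with -1.30 on the log2 scale (SE 0.41, adjusted p = 0.143 by edgeR), Ube3b with 1.14 (SE 0.37, adjusted p = 0.143) and Ube2h with -0.92 (SE 0.31, adjusted p = 0.159). Ube2v2 passed without colon HS replicate 5 (-1.57, adjusted p = 0.0492) and with the replicate number as a block (-1.63, adjusted p = 0.0465 by edgeR). The labels do not say that the same number means the same animal. Ube2d3 had -0.73 (adjusted p = 0.161), Ube3a -0.82 (0.340), Ube2a -0.58 (0.292) and Ube2g1 -0.43 (0.492). In the fit to all libraries without a block, the 7 cortex differences were not shown to differ from those in the colon, nor were they shown to be alike. For CAL minus HS, 0 of 26 passed, against 0% of all genes, and 1 (3.85%) had an unadjusted p under 0.05, against 10.7%, which was Ube3b with -0.90 (adjusted p = 0.356 by edgeR).

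The 2 tissues were compared in the NC groups to describe how the family is set without treatment. Tissue and library handling cannot be told apart in this contrast. Of 31 members tested, 11 were higher in colon (35.5%, against 30.4% of all 9128 tested genes) and 4 were lower (12.9%, against 28.4%), by edgeR at an adjusted p under 0.05. Every colon library lay above every cortex library for 6 members (19.4%, against 24.0%) and below for 1 (3.23%, against 23.9%), and that 1, the U-box ligase Ube4a, did not pass (log2 fold change -0.38, adjusted p = 0.195 by edgeR). The median log2 fold change was 0.37 over the members and 0.06 over all tested genes. The 11, the 6 and the members' median include Ube2c and Ube2l6, which could be tested only because the colon was high. The median also includes Ube2q2, which reached the count cutoff in too few colon libraries to pass on those alone. Ube2d1 and Ube2z, also in the median, reached it in too few cortex libraries to pass on those alone. The count of 15 was 8 after thinning to the smallest total, and all 8 were among the 15.

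Of the cell cycle and ISG15 enzymes, Ube2c and Ube2l6 entered the tissue fit through the colon: Ube2c reached the count filter in 0 of 15 cortex libraries and Ube2l6 in 1 of 15. They could be tested only because the colon was high, so their folds are given as a description and support nothing on the family. On the scale shared by all libraries, Ube2c had 21.2, 15, 28.5, 6.31 and 12.7 CPM in NC colon and 5.84, 0.908, 1.82, 6.03 and 1.71 CPM in NC cortex. The lowest colon library was just above the highest cortex library, the cortex values rest on 1 to 4 reads each, and the fitted log2 fold change was 2.33 (SE 0.63). After thinning Ube2c gave no value. Ube2l6 had 37.1, 46.4, 54.5, 31.6 and 46.2 CPM in NC colon and 19.0, 9.99, 7.29, 14.1 and 6.83 CPM in NC cortex, without overlap, a log2 fold change of 1.88 (SE 0.44). The 10 proliferation markers summed to 98.2 to 254 CPM in NC colon and 16.9 to 31.6 CPM in NC cortex, and their part was not tested. Ube2s had 115, 162, 109, 159 and 169 CPM in NC colon and 86.2, 56.3, 65.6, 103 and 104 CPM in NC cortex. It was higher by 0.80 on the log2 scale without overlap (adjusted p = 0.00561 by edgeR), and after thinning it did not pass (0.128).

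Both E2 enzymes of the endoplasmic reticulum membrane were higher in the colon. Ube2j1 had 51.2, 59.9, 44.1, 66.9 and 60.5 CPM in NC colon and 33.6, 27.2, 23.7, 34.2 and 20.5 CPM in NC cortex, without overlap, a log2 fold change of 1.03 (SE 0.24, adjusted p = 4.89e-04 by edgeR), and Ube2j2 had 148, 119.7, 83.0, 143 and 158 CPM in NC colon and 73.0, 103, 65.6, 54.3 and 61.4 CPM in NC cortex (0.85, SE 0.19, adjusted p = 2.93e-04 by edgeR). Only the cortex library of NC replicate 2 reached into the colon range of Ube2j2. Ube2v2 had 76.0, 73.3, 112, 44.2 and 76.4 CPM in NC colon and 39.4, 49.0, 38.3, 40.2 and 37.5 CPM in NC cortex (0.86, adjusted p = 0.00994 by edgeR). Ube2a (0.73, adjusted p = 0.00124 by edgeR), Ube2d3 (0.61, 0.00340), Ube2h (0.61, 0.0153) and Ube2r2 (0.57, 0.0291) were also higher. After thinning, Ube2a, Ube2d3, Ube2v2 and Ube2r2 passed and Ube2h did not (0.36, adjusted p = 0.171). Ube2r2 missed the threshold without cortex NC replicate 1 or 5 or colon NC replicate 3 or 4 (0.0505 to 0.0719). Of the 6 members that rose with high salt in the cortex, Ube2d3, Ube2v2, Ube2a and, except after thinning, Ube2h were higher in NC colon than in NC cortex, whereas Ube3a (0.27, adjusted p = 0.451) and Ube2g1 (0.37, adjusted p = 0.130) did not pass. Both comparisons are made against the same NC cortex libraries, so low levels there raise both fold changes, and they are not separate evidence. The 4 members that were lower in the colon each overlapped in part with the cortex range. Ube2e2, an E2 with an extended amino end, had 40.6, 29.9, 31.1, 16.4 and 27.1 CPM in NC colon and 64.3, 55.4, 41.9, 50.3 and 37.5 CPM in NC cortex (-0.81, adjusted p = 0.0106 by edgeR). Its relative Ube2e3 had 35.3, 46.4, 72.6, 40.4 and 43.0 CPM in NC colon and 99.3, 73.5, 78.4, 62.3 and 93.8 CPM in NC cortex (-0.81, adjusted p = 0.00700 by edgeR). Ube4b had 37.1, 19.5, 15.6, 30.3 and 23.9 CPM in NC colon and 29.2, 40.9, 32.8, 42.2 and 52.9 CPM in NC cortex (-0.62, adjusted p = 0.0482 by edgeR), and Ube3b 28.3, 26.9, 36.3, 30.3 and 25.5 CPM in NC colon and 49.6, 31.8, 38.3, 48.3 and 49.5 CPM in NC cortex (-0.56, adjusted p = 0.0418 by edgeR). Ube2e2 did not pass after thinning (0.0627). Ube4b missed the threshold in 4 of 9 other fits and with 22 of 31 libraries left out in turn (cortex NC 2 to 5, HS 1 to 4, CAL 1 to 4 and 6; colon NC 2, 3 and 5, HS 2, 3 and 5, CAL 2, 3 and 6), with adjusted p of 0.0503 to 0.145. Ube3b missed it in 4 of 9 and with 15 of 31 left out (cortex NC 1, 3, 4 and 5, CAL 2, 3, 4 and 6; colon NC 1, 2, 4 and 5, HS 3, CAL 2 and 6), with adjusted p of 0.0511 to 0.0915.

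**Figure D5:**
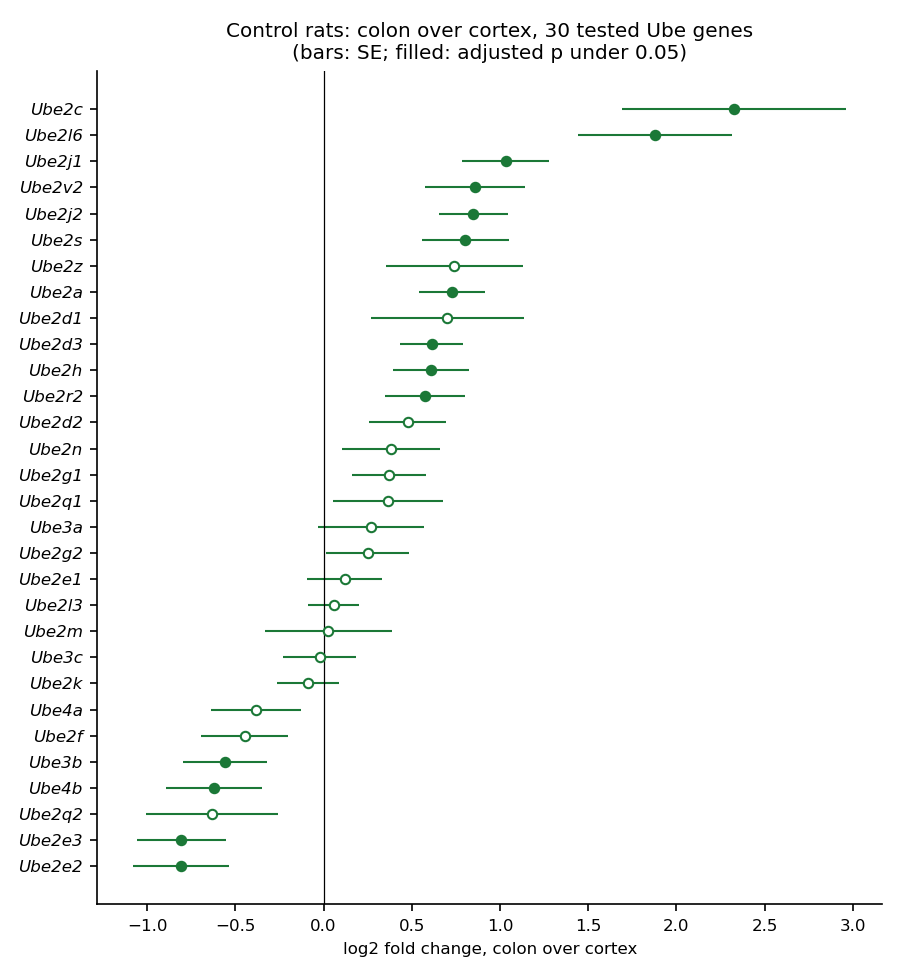
Log2 fold changes with SE of colon over cortex in the NC groups for 30 of the 31 tested Ube genes, sorted by size; filled points have an adjusted p under 0.05 by edgeR. Ube2c (2.33) and Ube2l6 (1.88) lie farthest to the right, and the 4 filled points to the left are Ube3b, Ube4b, Ube2e3 and Ube2e2.

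The rest of the relay was read from a list of 92 other ubiquitin pathway genes, of which 88 were listed in the data. Between HS and NC in the cortex, 78 of them were tested, and 10 rose (12.8%, against 7.35% of all tested genes) and 0 fell (against 3.69%) by edgeR, with a median log2 fold change of 0.11, against -0.01 over all tested genes. Cul2, a cullin scaffold, had 58.1 ± 3.68 CPM in HS and 28.2 ± 11.2 CPM in NC (log2 fold change 1.001, SE 0.25, adjusted p = 0.0127 by edgeR), and Uba3, the catalytic subunit of the NEDD8 E1, had 80.8 ± 9.08 CPM in HS and 47.7 ± 10.03 CPM in NC (0.75, SE 0.19, adjusted p = 0.0171). Others that rose were the E1 gene Uba6, the ligase genes Cul3 and Mdm2, the deubiquitinase genes Uchl5, Usp2 and Usp14 and the modifier gene Ufm1. The 3 tested ubiquitin genes and the 16 HECT ligases of this list held 0 calls in either direction. In CAL against HS and CAL against NC in the cortex and in all 3 colon comparisons, 0 of the list passed, and between the tissues of NC 17 of 79 were higher (21.5%, against 30.4% of all tested genes) and 11 lower (13.9%, against 28.4%) in colon.

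Some members were at or near 0. Over all 31 libraries the highest level was 5.52 CPM for Ube2ql1, 1.57 CPM for Ube2u, 5.52 CPM for Ube2d4 and 27.0 CPM for Ube2t, the E2 of the Fanconi anaemia pathway. Ube2q2l reached 38.6 CPM in colon CAL replicate 3 and at most 11.2 CPM elsewhere, and Ube2b had no count in any library. Of the 39 members, 11 did not pass the count filter in the cortex and 10 did not in the colon. The filter asks for about 15.8 CPM in at least 4 cortex libraries and 19.0 CPM in at least 5 colon libraries. For 13 members RefSeq names pseudogenes, 36 in all and 9 of them of Ube2n. Reads from such copies could be shared with these members, which include Ube2d3, Ube2g1 and Ube2v2, with 1 to 2 named copies each.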

How the data were processed

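RNA from rat kidney cortex and colon was sequenced, and the deposited values are raw read counts per gene, made by the authors and not normalized. TRIzol extraction, a tagmentation kit that does not mark strand and NextSeq 500 sequencing are given in the labels' protocols. FastQC 0.11.9, Trimmomatic 0.39, HISAT2 2.1.0, featureCounts 1.6.5 and build Rnor_6.0 are named per the submitters' processing notes. The annotation and the strand setting are not given in the sources used here. As the kit does not mark strand, reads of a gene and of its antisense partner cannot be told apart.

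Each tissue was fitted with its 3 groups by edgeR 4.0.16 (R 4.3.3) with TMM scaling, filterByExpr (minimum count 10, minimum total 15), the quasi-likelihood test and Benjamini-Hochberg adjustment over all tested genes at 0.05. A fit to all 31 libraries gave the difference between tissues. SE is the log2 fold change divided by the root of F, and 95% intervals are 1.96 SE. Totals of 267976 to 2265164 counts limit precision, and floors of 3 counts cover counting error only. No replicate pair was identical (66 pairs). Alternatives were DESeq2 1.42.0 (test or size factors), limma 3.58.1 voom, other filters, robust shrinkage, thinning, a replicate block, only the compared groups, and leaving out libraries. Scripts were checked on simulated data.

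The members and the lists of pathway and marker genes were chosen with earlier results of these data known. Named with their values were members past the threshold (at most 10 a comparison, else the 3 with the smallest p), the largest tissue differences (6 each way, with the others past the threshold added after their values were seen) and a fixed set of enzymes by role. Sequences were matched by symbol to RefSeq promoters, GRCr8.
The values of 1 member and of 1 pathway gene are not reported here, although counts include them.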

Additional observations from a re-analysis of the deposited data

Results flagged for a closer look

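Dixon's test was run for members named by the rules above and tested in the tissue, and other members were not examined. Within groups of 4 to 6 libraries, 6 of their 132 combinations of member and group held a library far from the others, and chance gives about 1 in 20 (6.6). Each was in a different library. In the cortex, Ube2e2 had 58.0 CPM in HS replicate 2, against 31 to 34.6 CPM in the other HS libraries. Ube2s had 90.7 CPM in cortex HS replicate 4, against 48.8 to 53.4 CPM. Ube4b had 26.5 CPM in cortex CAL replicate 5, against 36.2 to 41.6 CPM. In the colon, Ube2l6 had 152 CPM in HS replicate 3, against 9.94 to 44.3 CPM in the other HS libraries, and there the interferon response genes summed to 503 CPM and the leukocyte markers to 4001 CPM, whose part was not tested. Ube2h had 51.9 CPM in colon NC replicate 2, against 75.6 to 85.2 CPM. Ube2n had 71.9 CPM in colon NC replicate 1, against 37.7 to 46.1 CPM.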

How the results depend on the processing

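Counts of members past the threshold kept within 1.5 times the main count except as follows. For HS against NC in the cortex, 7 became 4 with DESeq2, with a filter of 1 CPM in at least 4 libraries and after thinning to the smallest total, all 4 among the 7 each time, and ran from 3 to 8 with 1 library left out. For CAL against HS in the cortex, 0 became 1 with DESeq2 and after thinning, and 0 to 1 with 1 library left out. For CAL against NC in the cortex, 0 became 1 with DESeq2 and with no filter, and 0 to 1 with 1 library left out. The tissue difference of HS against NC ran from 0 to 1 with 1 library left out. Colon against cortex fell from 15 to 8 after thinning, and ran from 13 to 16. The colon diet counts were 0 under all 10 alternatives. With the replicate number as a block, CAL against NC in the cortex gave 1 (Ube2d3, adjusted p = 0.0347 by edgeR) and the tissue difference of HS against NC gave 1 (Ube2v2, 0.0465), and other counts stayed within 1.5 times. The numbers were not shown to pair the libraries: same-numbered libraries correlated above 0.1 in 6 of 15 pairs across tissues (median 0.050; 1 of 66 differently numbered pairs, median -0.013), which is a hint of pairing there from the data and not from the labels, 0 of 13 within cortex and 4 of 15 within colon.

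The sign turned in 6 cases, none past the threshold. For HS against NC in the colon, the log2 fold change of Ube2a was 0.0275 after thinning, 0.0278 without NC replicate 4 and 0.0469 without HS replicate 4 (range -0.12 to 0.05 with 1 library left out), that of Ube2d3 was -0.0308 without HS replicate 3 (range -0.03 to 0.25), and that of Ube2h was 0.00853 without HS replicate 5 (range -0.22 to 0.01). In the cortex, that of Ube2m was 0.0551 without HS replicate 3 (range -0.51 to 0.06). The cause was not tested. For single members, 1887 values kept their direction and call, 93 lost a call and 9 gained one. Low genes such as Ube2c gave no value after thinning. Depth limits what can be said of members below the filter.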
